A study of Mus musculus with 10 samples.

Results

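Of the 24453 gene symbols in the expression table, 9 chromosome 3 genes discussed as neighbours of Setdb1 are described here: Cers2, Anxa9, Arnt, Ctsk, Ctss, Golph3l, Mcl1, Tmod4 and Tsacc. They were selected by symbol from a list chosen with values of these libraries known, so their differences between genotypes are descriptions and carry no test. RNA was sequenced from germinal vesicle (GV) oocytes of 10 C57Bl/6J mice, as 1 pool of 16 oocytes per mouse. The mutant oocytes were F/-; ZP3-cre (4 mice), with 1 conditional and 1 deleted Setdb1 allele and a Cre transgene driven by the promoter of Zp3, which is active in growing oocytes. The controls were F/- (2 mice), which carry the same 2 alleles without Cre, and F/+; ZP3-cre (4 mice), which carry 1 conditional and 1 wild-type allele with Cre and are called Cre controls below. All 3 genotypes thus inherit a conditional allele, mutant and F/- mice inherit the deleted allele, and mutant and Cre control mice share Cre. Cre can delete the conditional allele in growing oocytes, so Cre control oocytes can also hold a deleted copy, beside their wild-type allele. Only the mutants combine the inherited deleted allele with Cre, and only the Cre controls have a wild-type allele. The difference F/- minus Cre controls therefore holds the inherited deleted allele, the lack of an inherited wild-type chromosome and the lack of Cre. These cannot be told apart in it. The sources used here give neither the ages of the mice nor dates of library preparation.

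Setdb1 encodes a methyltransferase of lysine 9 of histone H3, a mark of silenced chromatin. A targeted allele is inherited together with the chromosome around it, so genes beside the targeted gene can differ between animals for reasons other than loss of its product. Comparing 3 genotypes sorts genes into those that differ wherever the deleted allele is inherited and those that differ only where it is combined with Cre. The first pattern is also that of the lack of an inherited wild-type allele. No genotype here lacks both the inherited deleted allele and Cre. Loss of Setdb1 therefore cannot be told apart from separate effects of the inherited deleted allele and of Cre that add up in mutants.

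By position the 9 genes fell into 8 that lie within 1 Mb of Setdb1 and 1, Tsacc, that does not. In GRCm38, the build of the files (mm10), Setdb1 occupies chr3:95323525-95357202 on the minus strand. Cers2 (chr3:95314771-95323599, plus strand) overlaps its end, and the 2 genes share 75 exon bases on opposite strands, which is 2.04% of the exon bases of Cers2 and 1.09% of those of Setdb1. Anxa9 (chr3:95296093-95315180) lies 8.35 kb away on the side of lower coordinates and Tmod4 (chr3:95122799-95129209) 194 kb away on the same side. On the other side follow Arnt (chr3:95434367-95497240) at 77.2 kb, Ctsk (chr3:95499210-95509387) at 142 kb, Ctss (chr3:95526786-95556405) at 170 kb, Golph3l (chr3:95588915-95619247) at 232 kb and Mcl1 (chr3:95656944-95663179) at 300 kb. Tsacc (chr3:88282752-88296999) lies 7.03 Mb from Setdb1 and is described with the others as a listed gene, without being called a neighbour.

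The start regions of 3 genes are shown because the results turn on these genes: Tmod4 and Tsacc differed most between genotypes among the 9, and Zfp687 is the neighbour of Setdb1 that was apart in mutants from both control genotypes with the least spread. Each runs from 250 bases before to 50 bases after the annotated start, 5′ to 3′ on the strand of the gene (RefSeq, GRCm38.p6), at chr3:95124264-95124563 (plus strand), chr3:88296950-88297249 (minus strand) and chr3:95015408-95015707 (minus strand). Capitals mark the motif CCAAT.
Tmod4: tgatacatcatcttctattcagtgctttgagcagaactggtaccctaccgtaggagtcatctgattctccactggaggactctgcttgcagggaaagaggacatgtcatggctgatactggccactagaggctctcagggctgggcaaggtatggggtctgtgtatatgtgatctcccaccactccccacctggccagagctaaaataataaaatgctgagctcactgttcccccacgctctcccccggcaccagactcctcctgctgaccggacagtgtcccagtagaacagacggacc
Tsacc: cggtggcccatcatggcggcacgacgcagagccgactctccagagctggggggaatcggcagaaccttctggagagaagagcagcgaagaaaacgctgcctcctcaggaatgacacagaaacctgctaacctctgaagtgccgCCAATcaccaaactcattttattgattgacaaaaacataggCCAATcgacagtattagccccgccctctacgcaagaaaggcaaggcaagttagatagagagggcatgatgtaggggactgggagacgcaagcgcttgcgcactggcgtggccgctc
Zfp687: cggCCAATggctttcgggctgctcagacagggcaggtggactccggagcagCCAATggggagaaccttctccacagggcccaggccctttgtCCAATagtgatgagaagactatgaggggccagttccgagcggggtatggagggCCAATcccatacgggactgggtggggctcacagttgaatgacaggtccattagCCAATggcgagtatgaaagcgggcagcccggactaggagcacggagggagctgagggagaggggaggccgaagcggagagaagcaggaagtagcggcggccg
All 9 genes matched the RefSeq table, 3 of them with 2 start regions. The TATA box (TATAAA), the CCAAT box (CCAAT), an E-box (CACGTG) and the NOBOX element (TAATTA) were searched on both strands, and none of these motifs contains another. Of 32851 start regions, 13.6% hold the TATA box, 37.4% the CCAAT box, 7.15% the E-box and 5.29% the NOBOX element. The Tmod4 region holds none of the 4 motifs and 5 CG dinucleotides, against a median of 7 over all regions. The Tsacc region holds 2 copies of CCAAT and 17 CG dinucleotides. The Zfp687 region shown, with 15 CG dinucleotides, and the Golph3l region each hold 5 copies of CCAAT, a number reached or exceeded in 0.271% of all regions. Zfp687 has a second start region, chr3:95015189-95015488, with 0 copies of CCAAT and 30 CG dinucleotides. These matches describe letters only.

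The authors deposited RPKM, a level per transcript length and per library total. The spacing of low values gave an estimated depth of 4.57e+07 to 7.26e+07 reads per library. A level of 0.109 RPKM equals 10 reads on 2 kb at the lowest of these depths. Markers of the oocyte were present throughout: the summed RPKM of 11 of 11 markers was 5.93e+03 to 6.16e+03 in mutant, 6.79e+03 to 7.82e+03 in F/- and 5.85e+03 to 7.39e+03 in Cre control libraries. By limma 2 of these 11 passed: Nobox was higher in mutants than in Cre controls (adjusted p = 0.009) and than in all controls (0.023), and Zp1 was lower in mutants than in F/- (0.019). At an unadjusted p below 0.05 in some comparison there were 7. The 12 granulosa and cumulus markers summed to 78 to 111 in mutant, 76.2 to 77.2 in F/- and 90.6 to 103 in Cre control libraries, with none at 0 throughout. The 12 macrophage and blood markers summed to 13.1 to 27.2 in mutant, 20.3 to 26.2 in F/- and 13.3 to 21 in Cre control libraries, with C1qc at 0 everywhere. The 8 theca and stroma markers summed to 0.959 to 3.91 in mutant, 1.76 to 3.93 in F/- and 1.36 to 2.33 in Cre control libraries, with Cyp17a1 and Col3a1 at 0. By limma no tested marker of these 3 other cell types (7, 3 and 1 of them) passed the threshold in any comparison. At an unadjusted p below 0.05 in some comparison there were 2, 1 and 0. The other 5, 9 and 7 markers averaged below 0.5 RPKM and were not tested. Of these, Adgre1 was at 0.271 to 0.836 RPKM in mutant and at 0 to 0.00424 in control libraries. Cyp11a1 and Pdgfra were lower in every mutant library than in any control library. The part of other cell types in the results was not tested. Differences are given as mean log2(RPKM + 0.5) with a standard error (SE), a scale that understates the change of low genes. The median SD of a gene on that scale was 0.388 in mutant, 0.385 in F/- and 0.191 in Cre control libraries.

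Setdb1 itself had 4.06, 2.55, 3.32 and 1.31 RPKM in mutant libraries, 19.9 and 26.3 RPKM in F/- libraries, and 28.6, 25.7, 25.1 and 52.5 RPKM in Cre control libraries. All mutant libraries lay below all controls, and the F/- range overlapped that of the Cre controls. The difference was -3.35 ± 0.38 for mutant minus Cre controls and -2.90 ± 0.35 for mutant minus F/-. In pools of oocytes, fewer cells with a transcript and less transcript per cell cannot be told apart, here and for all genes below.

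Tmod4 encodes a tropomodulin of skeletal muscle, a protein that caps the pointed ends of actin filaments. It was the listed gene with the largest difference, and it was high in F/- oocytes only. Its RPKM was 0.526, 0.315, 0.0295 and 0.0962 in mutant libraries, 8.24 and 5.98 in F/- libraries, and 0.17, 0.472, 0.584 and 0.117 in Cre control libraries. Mutant and Cre control ranges overlapped, and both F/- libraries lay above all 8 others. These values correspond to about 40, 22, 2 and 7 reads in the mutant libraries, about 4.7e+02 and 5.4e+02 reads in the F/- libraries, and about 13, 39, 41 and 10 reads in the Cre control libraries. The F/- mean of 7.11 ± 1.6 RPKM (SD, n = 2) was 21.2 times the Cre control mean of 0.336 ± 0.228 (SD, n = 4). Mutants averaged 0.242 ± 0.225 RPKM (SD, n = 4), or 0.034 times the F/- mean. On the log2 scale the differences were -0.18 ± 0.29 for mutant minus Cre controls, -3.39 ± 0.31 for mutant minus F/- and 3.21 ± 0.29 for F/- minus Cre controls. Tmod4 passed the filter on low values only through the F/- libraries. The cause of the high level in the F/- libraries was not tested.

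Tsacc encodes a co-chaperone of testis-specific serine kinases. Its RPKM was 19.3, 25.5, 18.9 and 30 in mutant libraries, 38.7 and 44.3 in F/- libraries, and 11.8, 14.6, 16.1 and 11.9 in Cre control libraries. The 3 genotypes did not overlap: F/- was highest, the mutants were intermediate and the Cre controls were lowest. The means were 23.4 ± 5.32 RPKM in mutants (SD, n = 4), 41.5 ± 3.97 in F/- (SD, n = 2) and 13.6 ± 2.12 in Cre controls (SD, n = 4). The mutant mean was thus 1.72 times that of Cre controls and 0.565 times that of F/-, and the F/- mean was 3.05 times that of Cre controls. On the log2 scale the differences were 0.75 ± 0.19 for mutant minus Cre controls, -0.83 ± 0.19 for mutant minus F/- and 1.58 ± 0.14 for F/- minus Cre controls. Against all 6 controls, the mutant difference of Tsacc was 0.22 ± 0.38, with the control genotypes on either side of the mutants. Tsacc shares 113 exon bases, 10.2% of its own, with the predicted gene Gm38392 on the same strand, so reads there cannot be assigned to 1 of them.

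Mcl1 encodes an anti-apoptotic member of the BCL2 family. Its RPKM was 9.83, 4.76, 3.89 and 11.3 in mutant libraries, 8.44 and 12.7 in F/- libraries, and 3.25, 4.67, 4.93 and 2.88 in Cre control libraries. Both F/- libraries lay above Cre controls, while the mutants split, with replicates 1 and 4 at the F/- level and replicates 2 and 3 at the Cre control level. The means were 7.43 ± 3.65 RPKM in mutants (SD, n = 4), 10.6 ± 3.02 in F/- (SD, n = 2) and 3.93 ± 1.02 in Cre controls (SD, n = 4). The differences were 0.74 ± 0.39 for mutant minus Cre controls, -0.58 ± 0.45 for mutant minus F/- and 1.32 ± 0.33 for F/- minus Cre controls.

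**Figure D1:**
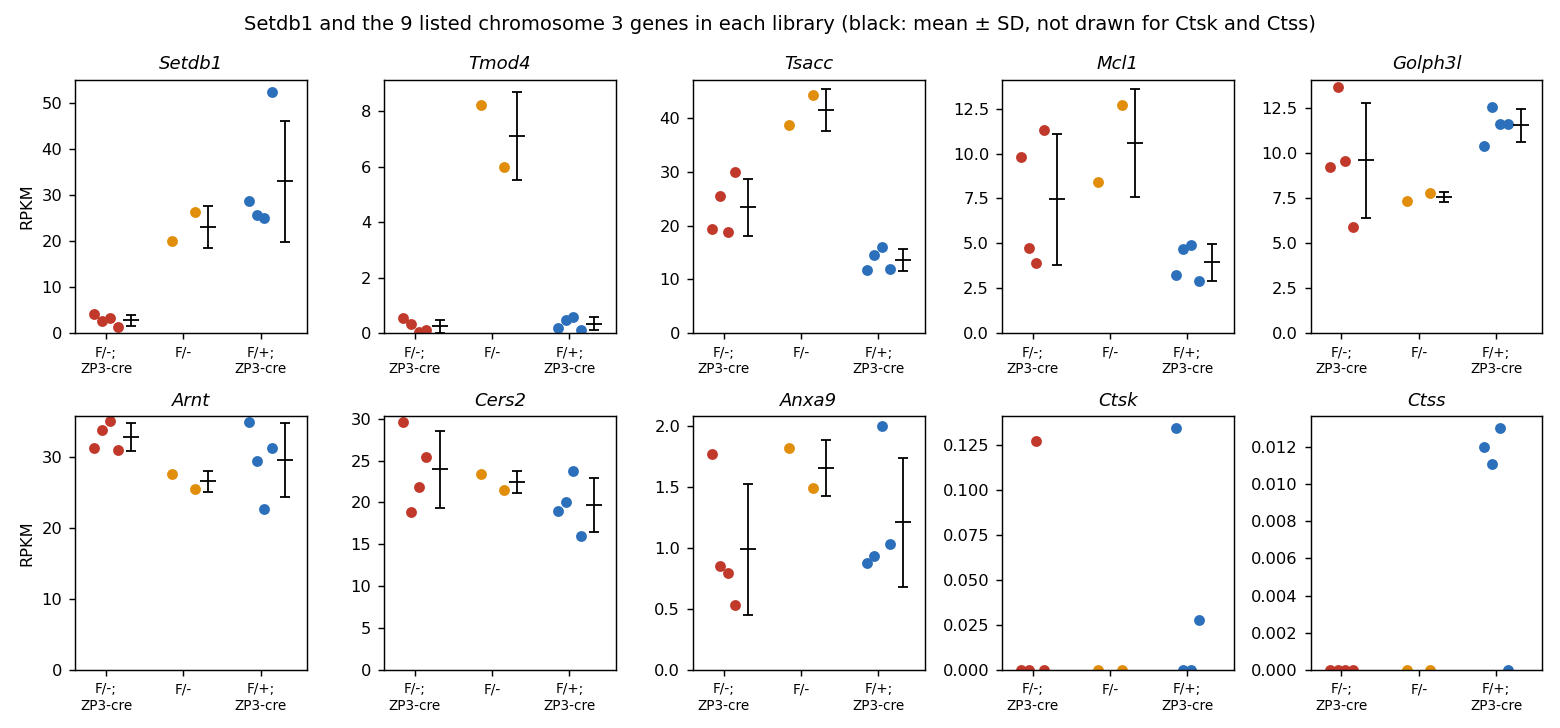
RPKM (y axis) of Setdb1 and the 9 listed genes in each library (points), by genotype (x axis, F/+; ZP3-cre being the Cre controls), with mean ± SD beside the points except for Ctsk and Ctss. Tmod4 is near 0 in mutant and Cre control libraries and at 8.24 and 5.98 in F/- libraries, and the 3 genotypes are apart for Tsacc.

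Golph3l encodes a Golgi protein related to the phosphoinositide-binding GOLPH3. It had 9.25, 13.7, 9.57 and 5.92 RPKM in mutant libraries, 7.35 and 7.78 RPKM in F/- libraries, and 10.4, 12.6, 11.6 and 11.6 RPKM in Cre control libraries. The F/- libraries lay below Cre controls, and the mutant range covered both. The difference was -0.30 ± 0.24 for mutant minus Cre controls, 0.27 ± 0.24 for mutant minus F/- and -0.58 ± 0.06 for F/- minus Cre controls. The table lists 3 transcripts of Golph3l, and in the one with the lowest mean the F/- mean was 4.65 ± 2.63 RPKM (SD, n = 2), against 11.8 ± 1.59 in Cre controls (SD, n = 4).

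Arnt, which encodes the shared partner of bHLH-PAS transcription factors such as the aryl hydrocarbon receptor, had the highest mean of the 9 over all libraries, and lay below Tsacc in both F/- libraries. It had 31.3, 33.8, 35.1 and 31 RPKM in mutant libraries, 27.6 and 25.5 RPKM in F/- libraries, and 34.9, 29.5, 22.6 and 31.3 RPKM in Cre control libraries. The mutants lay above F/- and overlapped Cre controls. The difference was 0.16 ± 0.14 for mutant minus Cre controls, 0.30 ± 0.07 for mutant minus F/- and -0.14 ± 0.14 for F/- minus Cre controls.

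Cers2, which encodes a ceramide synthase for very long acyl chains and overlaps Setdb1, had overlapping ranges in all 3 genotypes. It had 29.6, 18.9, 21.9 and 25.4 RPKM in mutant libraries, 23.4 and 21.5 RPKM in F/- libraries, and 19, 20, 23.8 and 16 RPKM in Cre control libraries. The differences were 0.27 ± 0.18 for mutant minus Cre controls, 0.08 ± 0.15 for mutant minus F/- and 0.19 ± 0.13 for F/- minus Cre controls. The library kit does not mark strand, so reads in the 75 shared bases cannot be assigned to Cers2 or to Setdb1. Cers2 shares a further 144 exon bases with 6330562C20Rik.

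Anxa9, an annexin and so a member of a family of membrane-binding proteins, was a low gene with overlapping ranges in all 3 genotypes. It had 1.77, 0.854, 0.791 and 0.534 RPKM in mutant libraries, 1.82 and 1.49 RPKM in F/- libraries, and 0.878, 0.932, 2 and 1.03 RPKM in Cre control libraries. The differences were -0.22 ± 0.31 for mutant minus Cre controls, -0.60 ± 0.26 for mutant minus F/- and 0.38 ± 0.23 for F/- minus Cre controls. Anxa9 shares 71 exon bases, 3.42% of its own, with Mindy1 on the opposite strand and 94 (4.53%) with 6330562C20Rik. Fam63a, which overlaps the end of Anxa9 by position, had 35.4 to 58.9 RPKM. Reads in shared bases cannot be assigned to 1 gene, so part of the low Anxa9 level may not be its own.

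The lysosomal cysteine proteases Ctsk and Ctss were close to absent in every genotype. Ctsk, the main collagen-degrading cathepsin of osteoclasts, was listed at 0 in 7 of 10 libraries, with 0.127 RPKM in mutant replicate 3 and 0.134 and 0.0275 RPKM in Cre control replicates 1 and 4, or about 10, 12 and 2.9 reads. Ctss, a cathepsin of antigen-presenting cells, was listed at 0 in all mutant and F/- libraries and at about 1 read in each of 3 Cre control libraries (0.012, 0.0111 and 0.013 RPKM). No difference between genotypes was detectable at this depth for either gene.

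Of the 9 genes, 7 passed the filter of a mean of 0.5 RPKM. The order of their levels depended on the genotype. Arnt was higher than Tsacc in 8 of 10 libraries, in 4 of 4 mutant, 0 of 2 F/- and 4 of 4 Cre control libraries. Tsacc and Cers2 changed places, with Tsacc higher in 2 of 4 mutant, 2 of 2 F/- and 0 of 4 Cre control libraries. Cers2 was higher than Golph3l in 10 of 10 libraries, and Golph3l was higher than Mcl1 in 2 of 4 mutant, 0 of 2 F/- and 4 of 4 Cre control libraries. Mcl1 was higher than Anxa9 and than Tmod4 in 10 of 10 libraries. Anxa9 was higher than Tmod4 in 4 of 4 mutant, 0 of 2 F/- and 4 of 4 Cre control libraries. Ranges were apart for 1 of the 7 between mutant and Cre controls (Tsacc, higher), where this held for 17.3% of all 11338 tested genes. They were apart for 3 of the 7 between mutant and F/- (Arnt higher, Tmod4 and Tsacc lower), beside 22.8% of all tested genes. Between F/- and Cre controls they were apart for 4 of the 7 (Tmod4, Tsacc and Mcl1 higher, Golph3l lower), beside 29.6%. Values in these comparisons chose the list, so nothing is read from the counts. The median difference over all 9 genes was -0.02 for mutant minus Cre controls, 0.00 for mutant minus F/- and 0.19 for F/- minus Cre controls, where the medians over all tested genes were 0.00, 0.07 and -0.07.

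**Figure D2:**
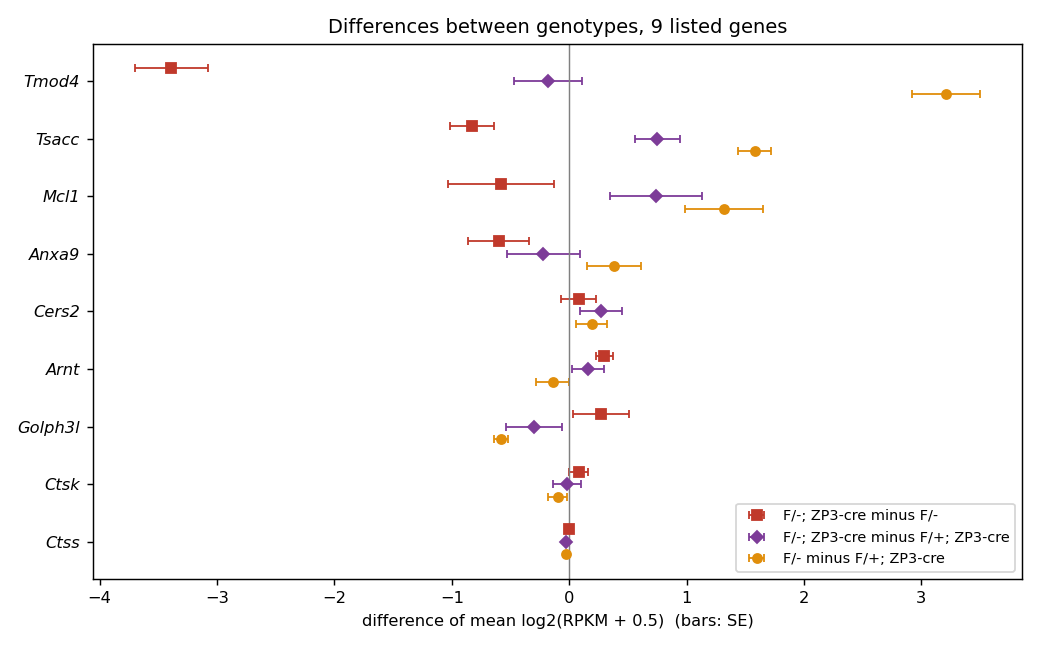
Difference of mean log2(RPKM + 0.5) (x axis, bars are SE) for the 9 listed genes (y axis) in 3 comparisons of genotypes. The 2 comparisons that involve F/- are far from 0 and opposite in sign for Tmod4 (-3.39 and 3.21). All 3 differ from 0 by more than their SE for Tsacc, Mcl1 and Golph3l. Cers2 and Arnt are no more than 0.30 from 0, with Arnt at 0.30 ± 0.07 for mutant minus F/-.

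Genes of the same stretch taken by position alone were tested. Apart from Setdb1 and the listed genes, 74 genes of the table lie within 1 Mb of Setdb1, of which 45 passed the filter and 6 were listed at 0 in all libraries. By limma over all 11338 tested genes with Benjamini-Hochberg adjustment, 3 of the 45 (6.67%) passed an adjusted p of 0.05 in mutants against all controls, beside 5.33% of all tested genes. Against Cre controls the mutants differed in 4 of the 45 (8.89%), beside 4.89%, and against F/- in 3 (6.67%), beside 4.84%. Between F/- and Cre controls, 1 of the 45 passed (2.22%), beside 0.0706% of all tested genes, or 8 of 11338 (1584 had an unadjusted p below 0.05). The median difference of the 45 was 0.20 for mutant minus Cre controls, 0.11 for mutant minus F/- and 0.06 for F/- minus Cre controls. Further out, 1 of 39 genes at 1 to 5 Mb and 8 of 104 genes (7.69%) at 5 to 10 Mb passed for mutant minus Cre controls. On the rest of chromosome 3, 24 of 339 genes (7.08%) passed for mutant minus Cre controls and 22 (6.49%) for mutant minus F/-. Between the control genotypes none of these more distant genes passed. Between the control genotypes, 7 of the 45, 2 of 39, 17 of 104 and 51 of 339 genes had an unadjusted p below 0.05. Over all tested genes the share was 14%. The count of 3 among the 45 for mutant minus F/- was 1 without mutant replicate 4 or Cre control replicate 2 or 4. That for mutants against all controls was 5 without F/- replicate 2.

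Hist2h2bb, a histone H2B gene 912 kb from Setdb1, was high in both genotypes that inherit the deleted allele in place of a wild-type one. Its RPKM was 6.65, 13.4, 10.7 and 10.3 in mutant libraries, 8.26 and 11.1 in F/- libraries, and 1.55, 1.19, 1.26 and 1.74 in Cre control libraries. Mutant and F/- ranges overlapped, and both lay above all Cre control libraries. The means were 10.3 ± 2.77 RPKM in mutants (SD, n = 4), 9.7 ± 2.04 in F/- (SD, n = 2) and 1.43 ± 0.256 in Cre controls (SD, n = 4). The difference was 2.45 ± 0.25 for mutant minus Cre controls (limma adjusted p = 9.8e-05) and 2.39 ± 0.31 for F/- minus Cre controls (limma adjusted p = 0.013), and 0.05 ± 0.31 for mutant minus F/- (limma adjusted p = 0.94). The difference between the control genotypes missed the threshold without F/- replicate 2 (limma adjusted p = 0.056) and without Cre control replicate 1 (0.081) or 2 (0.057). Its value is uncertain, because histone genes have near-identical copies and all 381 of its exon bases are shared with Gm20628 on the opposite strand.
The genes beside it, chosen after their values were seen, did not pass. Hist2h3b had 2.54 ± 0.555 RPKM in mutants (SD, n = 4), 2.25 ± 1.28 in F/- (SD, n = 2) and 0.996 ± 0.467 in Cre controls (SD, n = 4). Its difference was 1.05 ± 0.33 for mutant minus Cre controls (limma adjusted p = 0.1). Hist2h4 had 6.26 ± 3.24 RPKM in mutants, 8.39 and 31.2 RPKM in the F/- libraries, and 6.06 ± 2.53 RPKM in Cre controls.

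Zfp687, which encodes a zinc finger protein, and Mrps21, which encodes a protein of the small subunit of the mitochondrial ribosome, were higher in mutants than in either control genotype. Zfp687, 308 kb from Setdb1, had 22.9, 24.3, 23.1 and 23.8 RPKM in mutant libraries, 13.6 and 12.9 RPKM in F/- libraries, and 15.1, 15.3, 12.9 and 13.8 RPKM in Cre control libraries. The mutants were apart from both control genotypes, which overlapped each other. The difference was 0.70 ± 0.13 for mutant minus Cre controls (limma adjusted p = 0.0073) and 0.80 ± 0.16 for mutant minus F/- (0.013), against -0.10 ± 0.16 for F/- minus Cre controls (0.81). Zfp687 shares 254 exon bases, 4.27% of its own, with Pi4kb on the opposite strand.
Mrps21, at 505 kb, had 45.9, 52.4, 34.3 and 53.3 RPKM in mutant libraries, 30.3 and 19.7 RPKM in F/- libraries, and 22.2, 25.6, 27 and 20.3 RPKM in Cre control libraries. Again the mutants lay above both control genotypes, which overlapped. The difference was 0.94 ± 0.18 for mutant minus Cre controls (limma adjusted p = 0.01) and 0.89 ± 0.22 for mutant minus F/- (0.038). The first call was lost only without the filter on low values (0.059). The second was lost in 10 of 16 alternative settings (0.012 to 0.21 over all), among them without mutant replicate 1, 2 or 4, F/- replicate 2 or any 1 of the Cre controls.

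Anp32e, which encodes a histone chaperone for H2A.Z, was lower in mutants than in Cre control oocytes. At 572 kb from Setdb1, it had 4.69, 2.85, 3.15 and 1.35 RPKM in mutant libraries, 6.26 and 8.74 RPKM in F/- libraries, and 9.51, 8.97, 7.29 and 9.13 RPKM in Cre control libraries. All mutant libraries lay below all controls, and the controls overlapped. The difference was -1.48 ± 0.29 for mutant minus Cre controls (limma adjusted p = 0.013), and -1.26 ± 0.36 for mutant minus F/- missed the threshold (0.064). Against Cre controls the call was lost without Cre control replicate 1, 2 or 4 or without the filter (limma adjusted p of 0.052 to 0.059), whereas against all controls it passed in 16 of 16 alternative settings (0.0043 to 0.039).
Beside Setdb1, at 29.3 kb, 4930558C23Rik had 17.5, 11.1, 16.7 and 16 RPKM in mutant libraries, 8.15 and 2.36 RPKM in F/- libraries, and 7.63, 9.78, 13.2 and 8.22 RPKM in Cre control libraries. Its difference of 1.65 ± 0.38 for mutant minus F/- passed (limma adjusted p = 0.03) but was lost in 8 of 16 alternative settings (0.0015 to 0.17 over all), among them without mutant replicate 1, 3 or 4, F/- replicate 2 (difference 0.85) or Cre control replicate 2 or 4. It was 2.45 without F/- replicate 1. The difference for mutant minus Cre controls did not pass (limma adjusted p = 0.28).
The 5 neighbours with the highest mean, which are Psmb4, Psmd4, Fam63a, Prune and Mrps21, held no other call.

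**Figure D3:**
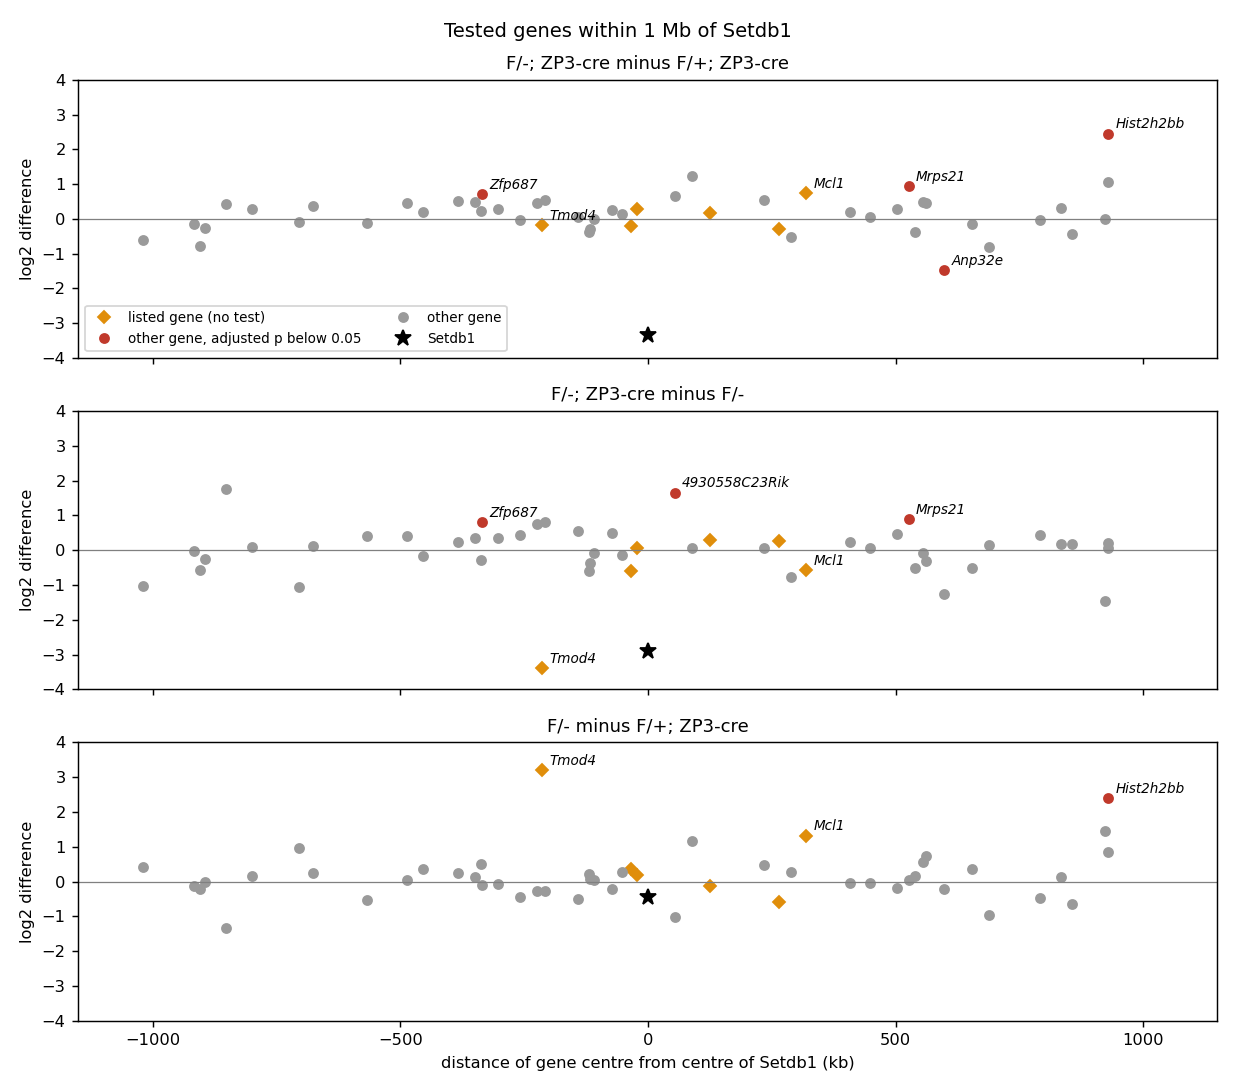
Log2 difference (y axis) of each tested gene within 1 Mb of Setdb1 against the distance between gene centres in kb (x axis), for 3 comparisons of genotypes. Most genes lie within 1 of 0, Setdb1 is at -3.35 and -2.90 in the 2 mutant comparisons, Tmod4 is at -3.39 and 3.21 where F/- is compared, and Hist2h2bb is at 2.45 and 2.39 where the Cre controls are compared.

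**Figure D4:**
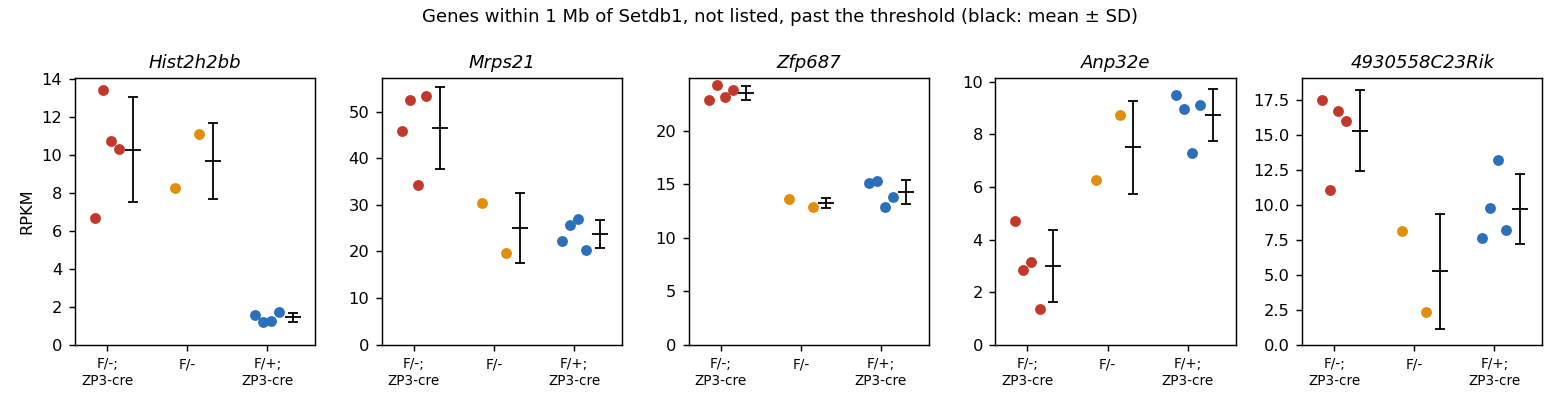
RPKM (y axis) by genotype (x axis) of the 5 unlisted genes within 1 Mb of Setdb1 that passed the threshold in at least 1 comparison, with mean ± SD beside the points. Hist2h2bb is high in mutant and F/- libraries, and Zfp687 and Mrps21 are highest in mutant libraries.

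The genes directly next to Tmod4 did not share its high level in F/- oocytes. Vps72 had 7.02 and 30.8 RPKM in F/- libraries, against 17.2, 18.3, 15.9 and 21.6 RPKM in Cre control libraries (limma adjusted p = 0.82), and Scnm1 had 20.2 and 8.63 RPKM in F/- libraries, against 16.8, 12.8, 20.3 and 15.1 RPKM in Cre control libraries (0.77). In both genes the F/- libraries lay on either side of the Cre controls or at their edge. Next to Tsacc, on the side of lower coordinates, Rhbg, an ammonium transporter gene, was highest in F/- oocytes as well. It had 0.614, 1.01, 0.91 and 0.0714 RPKM in mutant libraries, 4.74 and 4.47 RPKM in F/- libraries, and 1.42, 2.87, 2.58 and 1.78 RPKM in Cre control libraries. Unlike Tsacc, its mutant libraries were the lowest of the 3 genotypes, and the difference was -2.24 ± 0.44 for mutant minus F/- (limma adjusted p = 0.013) and 0.97 ± 0.44 for F/- minus Cre controls (0.34). The call against F/- was lost without the filter on low values (limma adjusted p = 0.06). For mutant minus Cre controls the difference was -1.27 ± 0.36 (limma adjusted p = 0.065). Against all controls it was -1.59 ± 0.38 (0.025), lost without the filter (0.11) and without mutant replicate 1 (0.058) or 4 (0.072) or Cre control replicate 2 (0.059). Rhbg shares 61.4% of its exon bases with Gm38392, the predicted gene that also overlaps Tsacc. On Tsacc's other side, Cct3 had 20 and 22.6 RPKM in F/- libraries and 25.2, 24.5, 35.7 and 25.1 RPKM in Cre control libraries. Here F/- lay below Cre controls, with a difference of -0.35 ± 0.21 (limma adjusted p = 0.47), and the mutant range overlapped both. These adjacent genes were picked by position after values of the region had been seen.

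Of the 8 genes called between F/- and Cre controls, 6 are not on the list. Hist2h2bb, Defb41 and Rbm38 were higher and Tmem182, Mt1 and Mir6537 lower in F/-. The other 2, Tmod4 and Tsacc, were listed with these values known, so nothing is read from their calls. Without Cre control replicate 1 or 2 no gene passed (1154 had an unadjusted p below 0.05 in each of these limma fits). The number of calls between the controls thus rests on single libraries.

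Relatives and partners of the listed genes were called at shares near or below those of all tested genes. Over 8 lists (ceramide synthesis, cathepsins and cystatins, the BCL2 family, bHLH-PAS factors, annexins, GOLPH3 partners, tropomodulins, and testis-specific kinases with their chaperones), 49 genes other than the listed ones were tested. By limma, none passed in mutants against all controls or between the control genotypes, beside 5.33% and 0.0706% of all tested genes. At an unadjusted p below 0.05 there were 10 (20.4%) in the first and 8 (16.3%) in the second of these comparisons, beside 19.8% and 14% of all tested genes. Against Cre controls 1 passed (2.04%, beside 4.89% of all tested genes). This was Hif1a, a partner of Arnt in the response to low oxygen. In F/- libraries it had 41.3 ± 0.707 RPKM (SD, n = 2), a range that overlapped mutants and lay below Cre controls. It was lower in mutants, at 38.9 ± 4.33 RPKM, than in Cre controls, at 52.1 ± 2.26 (SD, n = 4 each). The difference was -0.42 ± 0.11 (limma adjusted p = 0.045), and the call was lost in 7 of 16 alternative settings (0.022 to 0.16 over all), among them without mutant replicate 3 or 4 or any 1 of the Cre controls.
Against F/- 2 passed (4.08%, beside 4.84%). Anxa5, an annexin that binds phosphatidylserine, was higher, at 7.3 ± 1.77 RPKM in mutants (SD, n = 4) and 1.37 ± 1.28 in F/- (SD, n = 2), with a difference of 2.22 ± 0.39 (limma adjusted p = 0.0073). The F/- libraries were unlike, at 0.467 and 2.28 RPKM, and the difference was 1.46 without F/- replicate 1 and 2.98 without F/- replicate 2. Ctsd, a lysosomal aspartic protease, was lower, at 15.8 ± 6.11 RPKM in mutants and 30.8 ± 2.83 in F/- (limma adjusted p = 0.049, lost in 13 of 16 alternative settings, among them without any 1 library other than mutant replicate 4). Cre controls had 3.87 ± 0.511 RPKM of Anxa5, between F/- and mutants, and 13.2 ± 1.21 of Ctsd, overlapping mutants (SD, n = 4 each). The oocyte-rich BCL2 relative Bcl2l10 had 549 ± 33.8 RPKM in mutants (SD, n = 4), 555 ± 69.7 in F/- (SD, n = 2) and 602 ± 82.4 in Cre controls (SD, n = 4). The other tropomodulins Tmod2 and Tmod3 had 0.823 ± 0.702 and 5.26 ± 0.462 RPKM in mutants, 2.36 ± 0.519 and 7.37 ± 5.04 in F/-, and 1.76 ± 0.73 and 8.95 ± 1.13 in Cre controls.

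The genes with the most similar pattern over the 10 libraries were found by Pearson's r of log2(RPKM + 0.5), as a description. Tmod4 was most like Clns1a (r = 0.934) and Sass6 (0.93), Tsacc like Mok (0.94) and Rbm38 (0.939), and Mcl1 like Kat5 (0.954) and Tmem39b (0.948). Golph3l was most like Pfn2 (0.965) and Scarb1 (0.961), Arnt like 4933413G19Rik (0.901) and Lrrc59 (0.888), Cers2 like Ugt8a (0.937) and Rnf181 (0.895), and Anxa9 like Galm (0.951) and Usp39 (0.941). Among the listed genes, Mcl1 and Tsacc had r = 0.826 and Tmod4 and Tsacc r = 0.731, pairs that share the F/- libraries as their highest group mean. By rank (Spearman's rho) these were 0.855 and 0.43. Anxa9, whose mean was also highest in F/-, had r of 0.186 with Tsacc, 0.272 with Mcl1 and 0.633 with Tmod4. Golph3l and Mcl1 had r = -0.746. Between Cers2 and Setdb1 r was -0.512.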

How the data were processed

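Per the labels' protocols, GV oocytes were collected in medium with milrinone, an RNeasy Micro Kit yielded the RNA, cDNA from small amounts was amplified with a NuGen Ovation system, and a TruSeq DNA kit, which keeps no strand, gave the libraries. Amplification adds spread between libraries. STAR, bcl2fastq 1.8.3 and the build mm10 are named in the submitters' processing notes. No counting tool is named in the sources used here. The authors deposited RPKM values for 34768 RefSeq transcripts in the 10 libraries. Where a symbol had several rows, the row with the highest mean was used. The 11338 genes averaging 0.5 RPKM or more were tested on log2 values of the deposited RPKM plus 0.5 with limma 3.58.1 in R 4.3.3 (empirical Bayes trend, Benjamini-Hochberg adjustment, threshold 0.05). The model had 2 levels for mutants against all controls and 3 genotypes sharing 1 spread otherwise, and was tested on simulated data. Standard errors of the listed genes and of Setdb1 come from the spread of each group, those of other genes from limma.

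The listed genes and family lists were chosen with earlier results of these data known. Named are Setdb1, the 9 listed genes, neighbours within 1 Mb past the threshold or among the 5 highest, the 2 genes most like each listed gene, and the family members past the threshold or among the 2 highest. Genes next to Tmod4, Tsacc and Hist2h2bb were added after values were seen. Positions came from RefSeq for 99.7% of symbols, and exon overlaps and lengths from GENCODE M21. Depth was estimated from the spacing of low values, of which 71.0% to 73.6% came within 0.1 of a whole read, so read numbers are approximate and the precision is that of 4 or 2 pools per genotype. Alternatives were pseudocounts of 0.1 and 2, median centring, no filter, summed rows, a replicate block and leaving out each library. Leaving out an F/- library leaves 1 in that genotype, so calls that involve F/- then rest on the spread of the other genotypes.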

Additional observations from a re-analysis of the deposited data

Results flagged for a closer look

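In groups of 4 libraries, 4 of 37 had 1 value far from the other 3 by Dixon's criterion. Chance meets it in about 1 in 20 groups of normally distributed values. Ctsk and Ctss, mostly at 0, do not have such values, so 4 of 37 cannot be judged against that share. Setdb1 was at 52.5 RPKM in Cre control replicate 4, and at 25.1 to 28.6 in the other Cre control libraries. Anxa9 was at 2 RPKM in Cre control replicate 3, and at 0.878 to 1.03 in the others of that genotype. Ctsk was at 0.127 RPKM in mutant replicate 3 and at 0 in the other mutants. Ctss was at 0 in Cre control replicate 4, and at 0.0111 to 0.013 RPKM, about 1 read each, in the others of that genotype.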

How the results depend on the processing

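Without a filter on low values the number of genes called was 357 for mutants against all controls and 279 for mutant minus F/-, against 604 and 549 with it. For F/- minus Cre controls it was 27 without the filter and 25 with a pseudocount of 0.1, against 8. Neighbours called without the filter were 2 for mutant minus Cre controls and 1 for mutant minus F/-. Leaving out each library in turn gave 357 to 801 calls for mutants against all controls, 226 to 904 for mutant minus Cre controls, 275 to 1487 for mutant minus F/- and 0 to 843 for F/- minus Cre controls. In the same order, 3 to 5, 3 to 5, 1 to 8 and 0 to 4 neighbours were called. The highest count was reached without F/- replicate 2 in the first of these comparisons and without F/- replicate 1 in the other 3, and the lowest without Cre control replicate 2, shared with replicate 1 in the last. The median difference over the 9 genes was -0.02 to 0.07, -0.03 to 0.06, -0.03 to 0.00 and 0.10 to 0.29 in these fits. With median centring, 303 genes were higher and 339 lower in mutants than in all controls (47.2% higher, against 58.3% as deposited), and 266 were higher and 344 lower than in Cre controls (43.6%, against 56.5%). The cause was not tested. Of 576 values of the listed genes under the alternatives, 554 moved by less than 1 SD, and the other 22 were of Tmod4, Ctsk and Ctss. The Tmod4 difference for F/- minus Cre controls was 4.19 with a pseudocount of 0.1 and 1.96 with 2.

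Deviations from the genotype mean had r of -0.0461 to 0.0308 between libraries with the same replicate number. Between libraries with different numbers r was -0.0809 to 0.0809. Such deviations sum to 0 within each genotype, so these values cannot decide whether the numbers pair libraries. A replicate block gave 376 calls for mutants against all controls, 223 for mutant minus F/- and 1 for F/- minus Cre controls, with 1 and 0 neighbours called in the last 2 of these. Of the neighbours named, it lost Zfp687 (limma adjusted p = 0.066), Mrps21 (0.1) and 4930558C23Rik (0.072) for mutant minus F/- and Hist2h2bb (0.077) for F/- minus Cre controls. The F/- group has 2 libraries, and depth limits what can be said of Ctsk and Ctss.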
